A study of Homo sapiens with 15 samples.

Results

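The endothelial genes described here are 10 genes that mark or specify the cells lining blood vessels: PECAM1, CDH5, TEK, TIE1, VWF, FLT1, ERG, ENG, CD34 and ETV2. They were picked by name, through the GENCODE symbol of each Ensembl identifier, and all 10 were found among the 48777 genes of the deposited tables. The bulk RNA-seq followed H1, a long-established line of human embryonic stem cells, as it differentiated towards heart cells. Libraries were taken on days 0, 4, 9, 11 and 20, with 3 per day labelled as biological replicates. Day 0 cells were undifferentiated, and the labels give a coating of LN-521 and LN-221, both laminins, and one cell line for all 15 libraries, although the deposited sample table lists LN-521 alone for day 0. In the labels' treatment protocol the Wnt activator CHIR99021 was added on day 4 and the Wnt inhibitor IWP2 afterwards, while their growth protocol places CHIR99021 before day 4. Day 11 cells are the study's committed cardiac progenitors (CCPs). No endothelial growth factor is named in either protocol, and no library was sorted for endothelial cells. The question put to the data was how these genes behaved over the days, and how far the 3 day 11 libraries differed.

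Endothelial cells arise from mesoderm, where the ETS-family factor ETV2 acts early and briefly, and ERG, another ETS-family factor, later maintains endothelial identity. VEGF signals through receptors such as FLT1 and KDR, and angiopoietins signal through TEK (TIE2), which TIE1 assists. PECAM1 and CDH5 (VE-cadherin) join endothelial cells to each other, VWF is the clotting protein that they store, ENG is a co-receptor for BMP and TGF-beta family ligands, and CD34 is a surface sialomucin shared with blood progenitors.

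Values are CPM, read counts relative to library size, scaled by the trimmed mean of M-values (TMM) over all libraries, with libraries of 11990302 to 33469703 counts. Replicate libraries are named by the plate in their labels. Of the 3 day 20 libraries, the one labelled plate 2 (2_3) stood apart, with an RNA integrity number of 6.1 against 8.8 to 10 in the other libraries, and with reads on 48230 genes. Its values are given with those of the others, and its part in each result is described where it bears on one. In day 0 replicate 3 and day 9 plate 2, one short gene took 20.0% and 17.0% of all TPM (a length-corrected share of all transcripts), which lowers every other TPM there. In bulk samples, fewer cells of a type and less RNA per cell cannot be told apart.

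Because it corrects for gene length, TPM orders the genes within a day. FLT1 had the highest mean TPM of the 10 on days 0 (98.8 ± 12.1, SD, n = 3), 4 (101 ± 26.2) and 9 (33.1 ± 10.9). TEK had the highest on days 11 (84.7 ± 6.38) and 20 (57.9 ± 72.0). On day 20 the SD of TEK exceeded its mean, so its place above FLT1 (28.2 ± 6.17) was within the spread. At the low end, PECAM1 on day 0 (0.150 ± 0.0795), CDH5 on day 4 (0.159 ± 0.0962) and ERG on days 9 (0.210 ± 0.146), 11 (2.33 ± 2.06) and 20 (2.12 ± 2.08) had the lowest means. On day 9, VWF (31.3 ± 31.5) came second, within the spread of FLT1, and on day 11 CDH5 (21.2 ± 27.4) ranked below TEK and FLT1 with an SD above its mean.

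**Figure D1:**
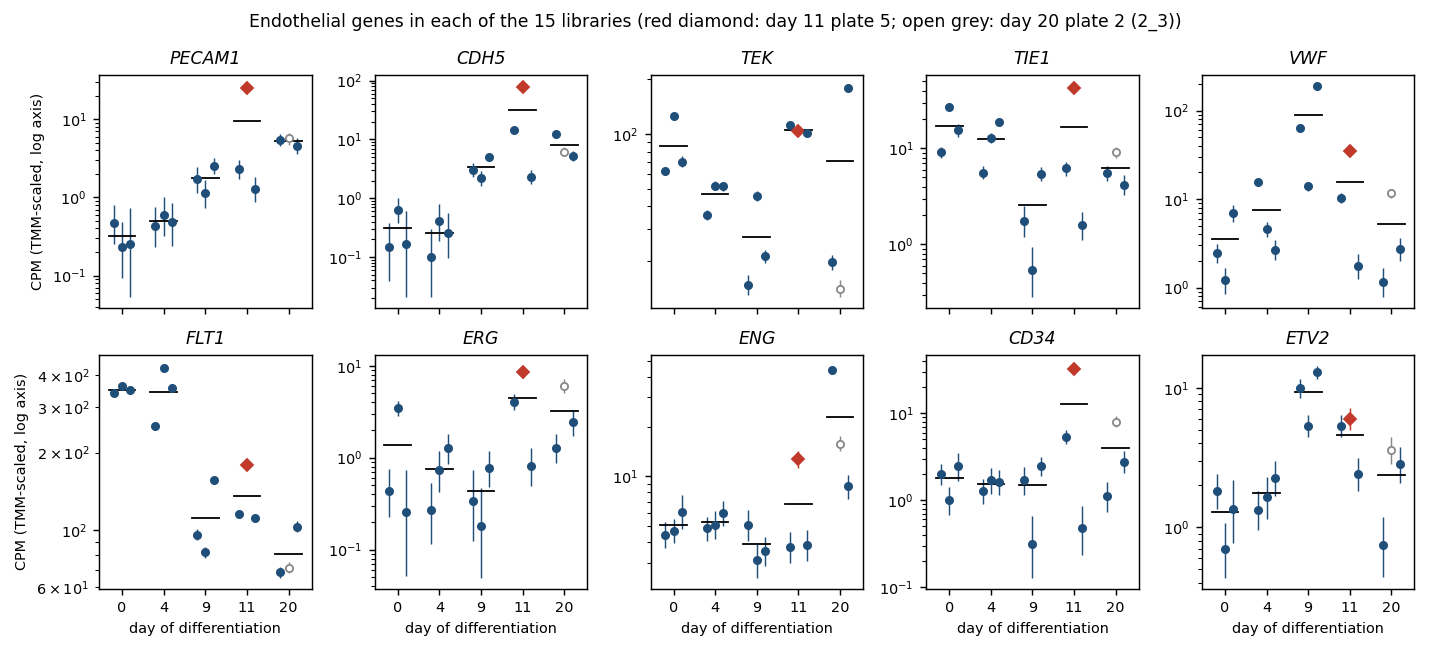
Each panel plots 1 gene, with the day of differentiation on the x axis and TMM-scaled CPM on a log y axis. Points are libraries with exact 95% Poisson intervals, which cover counting error only, and the black line is the mean of 3. CDH5 on day 11 spreads from 2.32 to 79.4 CPM, while TEK lies between 101 and 112.

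The junction genes were near the floor early and appeared by day 9. PECAM1 (ENSG00000261371, chr17:64319415-64413776, minus strand, GRCh38) stood at 0.472, 0.234 and 0.254 CPM on day 0 and at 0.436, 0.595 and 0.479 CPM on day 4. It reached 1.71, 1.13 and 2.54 CPM on day 9, in plate 2, plate 6 and the library with no plate number. On day 11 it was 2.31 CPM in plate 2, 25 CPM in plate 5 and 1.29 CPM in plate 6, and on day 20 it was 5.4, 5.70 and 4.60 CPM in plate 2, plate 2 (2_3) and plate 6. All day 9 libraries lay above all day 4 libraries, and day 11 overlapped day 9 and day 20. CDH5 (ENSG00000179776, chr16:66366690-66404784, plus strand) had 2 to 19 reads per library on days 0 and 4, or 0.101 to 0.635 CPM. It reached 3.08, 2.21 and 5.08 CPM on day 9 in the same order of libraries. On day 11 it was 14.7 CPM in plate 2, 79.4 CPM in plate 5 and 2.32 CPM in plate 6, and on day 20 it was 12.4, 6.19 and 5.25 CPM. The plate 6 library of day 11 was thus inside the day 9 range for both junction genes, and the plate 5 library was above every other library of the series.

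Both junction genes rose from day 4 to day 9 in edgeR's quasi-likelihood test with Benjamini-Hochberg adjustment. PECAM1 rose by 1.90 on the log2 scale (SE 0.38, adjusted p = 0.00338) and CDH5 by 3.85 (SE 0.51, adjusted p = 0.000449). The CDH5 call passed in 15 of 15 alternatives. For PECAM1 14 of 15 passed, and the call was lost with all 15 libraries in one fit (edgeR adjusted p = 0.130). Each sequencing lane with a library of both days gave the same direction, with log2 differences of 1.49, 1.20 and 2.48 for PECAM1 and 2.84, 2.98 and 5.38 for CDH5. Day 11 against day 4 gave 4.27 for PECAM1 (SE 1.22, edgeR adjusted p = 0.0259) and 7.03 for CDH5 (SE 1.49, edgeR adjusted p = 0.00759). Without day 11 plate 5 these became 1.87 and 5.13, both still past the threshold in edgeR (adjusted p = 0.00279 and 0.00464). The CDH5 call was lost only with no filter on low counts (edgeR adjusted p = 0.0620). The PECAM1 call was lost when any 1 of the day 4 libraries of plates 1, 2 or 5 was left out, with edgeR adjusted p between 0.0726 and 0.0840. It passed in 10 of 16 alternatives, and was also lost with the plate number as a replicate block, no filter on low counts and limma on log2(TPM + 1) (adjusted p = 0.0711, 0.132 and 0.109).

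The angiopoietin receptor TEK and its partner TIE1 were both present in undifferentiated cells. TEK (ENSG00000120156, chr9:27109141-27230174, plus strand) was 62.5, 126 and 70.3 CPM on day 0 and stood at 36.0, 52.0 and 51.6 CPM on day 4. On day 9 it was 14.8 CPM in plate 2, 45.5 CPM in plate 6 and 21.3 CPM in the library with no plate number. On day 11 the 3 libraries gave 112, 103 and 101 CPM, the narrowest range of the 10 genes that day, and all lay above the day 4 and day 9 libraries. On day 20 plate 6 held 178 CPM against 19.7 CPM in plate 2 and 14.2 CPM in plate 2 (2_3). TEK rose by 1.20 from day 4 to day 11 (SE 0.17, edgeR adjusted p = 0.000599), a call lost only when all 15 libraries shared one fit (edgeR adjusted p = 0.222). From day 9 to day 11 its log2 fold change was 1.94 (SE 0.39, edgeR adjusted p = 0.0528), with 2.80, 1.15 and 2.39 in the 3 lanes. Without day 9 plate 6 that comparison gave 2.53 (edgeR adjusted p = 0.00647), and day 9 against day 4 gave -1.28 (edgeR adjusted p = 0.00179) in place of -0.72 (adjusted p = 0.158). Without day 20 plate 6, TEK fell by 2.61 on the log2 scale from day 11 to day 20 (edgeR adjusted p = 0.0227), where all 3 libraries gave -0.56 (adjusted p = 0.797).

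TIE1 (ENSG00000066056, chr1:43300982-43323108, plus strand) was 9.08, 26.9 and 15.4 CPM on day 0 and 5.57, 12.7 and 18.9 CPM on day 4. It was lower on day 9, at 1.77, 0.542 and 5.41 CPM, with no overlap with day 4, although the highest day 9 library was just under the lowest day 4 library. On day 11 it was 6.18 CPM in plate 2, 42.4 CPM in plate 5 and 1.59 CPM in plate 6, and on day 20 it was 5.52, 9.06 and 4.19 CPM. TIE1 fell by 2.17 on the log2 scale from day 4 to day 9 (SE 0.74, edgeR adjusted p = 0.0428). The log2 differences within the 3 lanes were -2.83, -5.06 and -0.04. The call passed in 8 of 15 alternatives. It was lost without day 4 plate 2, day 4 plate 5 or day 9 plate 2 (edgeR adjusted p = 0.101, 0.129 and 0.154), and also with no filter on low counts, scaling by library size, the lane as a covariate, or all 15 libraries in one fit (edgeR adjusted p from 0.0640 to 0.221). Day 11 against day 4 gave 0.47 (SE 1.06, edgeR adjusted p = 0.745), and -1.63 without day 11 plate 5 (adjusted p = 0.126).

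FLT1, the VEGF receptor that also has a soluble form not separated by gene counts, fell between day 4 and day 9 and was at the lower level on days 11 and 20. FLT1 (ENSG00000102755, chr13:28300346-28495145, minus strand) held 340, 362 and 350 CPM on day 0 and 253, 426 and 356 CPM on day 4. It held 95.9, 81.9 and 156 CPM on day 9, 115, 179 and 111 CPM on day 11, and 68.4, 71.3 and 103 CPM on day 20. Every library of days 9, 11 and 20 lay below every library of days 0 and 4. FLT1 fell by 1.58 on the log2 scale from day 4 to day 9 (SE 0.29, edgeR adjusted p = 0.00288), and its day 11 against day 4 value was -1.33 (SE 0.26, edgeR adjusted p = 0.00296). Both calls held under each alternative run, 15 for the first and 16 for the second.

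ENG, the co-receptor, kept within a narrow range up to day 9. ENG (ENSG00000106991, chr9:127815013-127854658, minus strand) ranged from 3.12 to 6.09 CPM over the 9 libraries of days 0, 4 and 9. On day 11 it was 3.74, 12.7 and 3.83 CPM in plates 2, 5 and 6. On day 20 it was 43.9 CPM in plate 2, 15.7 CPM in plate 2 (2_3) and 8.68 CPM in plate 6, so the lowest day 20 library lay below day 11 plate 5. Day 20 against day 11 gave a log2 fold change of 1.78 (SE 0.70, edgeR adjusted p = 0.251), which passed only with all 15 libraries in one fit (edgeR adjusted p = 0.0456). Of the exonic bases of ENG, 8.15% also lie in a noncoding gene on the opposite strand. Whether counting used the strand is not given in the sources used here.

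VWF peaked on day 9 and CD34 in 1 library of day 11. VWF (ENSG00000110799, chr12:5948877-6124770, minus strand) was 2.43, 1.20 and 6.93 CPM on day 0 and 15.4, 4.58 and 2.66 CPM on day 4. On day 9 it was 64.3 CPM in plate 2, 13.9 CPM in plate 6 and 188 CPM in the library with no plate number, and the lowest of these was below day 4 plate 1. On day 11 it was 10.2, 35.2 and 1.76 CPM, and on day 20 it was 1.16, 11.6 and 2.72 CPM. VWF rose by 3.60 from day 4 to day 9 (SE 1.02, edgeR adjusted p = 0.0235), with log2 differences of 3.81, 2.38 and 3.60 in the 3 lanes. The call passed in 10 of 15 alternatives. It was lost without day 4 plate 2, day 4 plate 5 or the day 9 library with no plate number (edgeR adjusted p = 0.0788, 0.0609 and 0.151), and also with library size alone and with no filter on low counts (0.0529 and 0.151). Day 11 against day 9 gave -2.50 (SE 1.16, edgeR adjusted p = 0.335).

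CD34 (ENSG00000174059, chr1:207880972-207911402, minus strand) stayed between 0.316 and 2.47 CPM in the 9 libraries of days 0, 4 and 9. On day 11 it was 5.35 CPM in plate 2, 32.8 CPM in plate 5 and 0.473 CPM in plate 6. Plate 6 was below all but 1 of the earlier libraries and plate 5 above all libraries. On day 20 it was 1.12, 8.03 and 2.77 CPM. The day 11 against day 4 value was 3.11 (SE 1.25, edgeR adjusted p = 0.0801). It was 0.98 without plate 5 (adjusted p = 0.372) and 3.67 without plate 6 (adjusted p = 0.0132), both from edgeR. It also passed with DESeq2, with all 15 libraries in one fit and with the plate number as a replicate block (adjusted p = 0.0451, 0.0422 and 0.0421). Day 11 plate 6, whose number no day 4 library shares, does not inform the block fit.

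The ETS-family factors followed different courses. ETV2 (ENSG00000105672, chr19:35641745-35644871, plus strand) was 1.82, 0.702 and 1.35 CPM on day 0 and 1.34, 1.65 and 2.26 CPM on day 4. It was 9.91, 5.33 and 13.0 CPM on day 9, 5.31, 6.00 and 2.41 CPM on day 11, and 0.747, 3.59 and 2.83 CPM on day 20. All day 9 and day 11 libraries lay above all day 4 libraries, although day 11 plate 6 was just above day 4 plate 5 (2.41 against 2.26 CPM). ETV2 rose by 2.49 from day 4 to day 9 (SE 0.36, edgeR adjusted p = 0.000819), past the threshold in each of 15 alternatives. Day 11 against day 4 gave 1.41 (SE 0.40, edgeR adjusted p = 0.0176), and this call was lost without day 4 plate 1, day 4 plate 2 or day 11 plate 2 (adjusted p = 0.0772, 0.0719 and 0.0579) and with all 15 libraries in one fit (0.0664). Day 11 against day 9 gave -1.05 (SE 0.44, edgeR adjusted p = 0.275).

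ERG (ENSG00000157554, chr21:38380027-38661780, minus strand) was 0.436, 3.44 and 0.254 CPM on day 0, with replicate 2 apart, and 0.268, 0.733 and 1.26 CPM on day 4. It was 0.342, 0.181 and 0.773 CPM on day 9 and 4.05, 8.63 and 0.817 CPM on day 11, so that all day 11 libraries lay above day 9 and plate 6 lay within day 4. Day 11 plate 6 (95% Poisson interval 0.492 to 1.28 CPM) was within counting error of the highest day 9 library (0.478 to 1.18 CPM). On day 20 ERG was 1.29, 6.01 and 2.42 CPM. ERG rose by 2.62 from day 4 to day 11 (SE 0.89, edgeR adjusted p = 0.0464). That call was lost without any 1 of the 3 day 4 libraries and without day 11 plate 2 or plate 5 (edgeR adjusted p from 0.0643 to 0.126). It passed in 6 of 16 alternatives, and was also lost with both limma fits, the lane as a covariate, all 15 libraries in one fit and no filter on low counts (adjusted p from 0.0608 to 0.183). Within the lanes the log2 differences were 3.52, -0.61 and 3.81. From day 9 to day 11 the log2 fold change was 3.32 (SE 0.90, edgeR adjusted p = 0.118), with 4.57, 2.05 and 2.36 in the 3 lanes. Without day 11 plate 6 it was 3.8 (edgeR adjusted p = 0.0489).

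RefSeq promoter windows (GRCh38.p14) were at hand for TEK, TIE1, FLT1, ERG, ENG, CD34 and ETV2, and not for PECAM1, CDH5 or VWF. The 250 bases before the start are shown for the 4 genes whose window lies outside the GENCODE gene or nearly so, and these genes differed in their day 11 spread: TIE1 26.7-fold between the highest and lowest library, ENG 3.39-fold, ETV2 2.49-fold and FLT1 1.60-fold. The windows of TEK, ERG and CD34 reach at least 84 bases into the annotated gene and are not printed. Capitals mark GGAAG and its reverse complement CTTCC, a form of the site that ETS-family factors such as ETV2 and ERG are known to bind. Forms with a different base after GGAA are not marked. The windows are TIE1 at chr1:43300732-43300981 (plus strand), ENG at chr9:127854659-127854908 (minus strand), ETV2 at chr19:35641495-35641744 (plus strand) and FLT1 at chr13:28495129-28495378 (minus strand, 17 bases of it inside the GENCODE gene).
TIE1: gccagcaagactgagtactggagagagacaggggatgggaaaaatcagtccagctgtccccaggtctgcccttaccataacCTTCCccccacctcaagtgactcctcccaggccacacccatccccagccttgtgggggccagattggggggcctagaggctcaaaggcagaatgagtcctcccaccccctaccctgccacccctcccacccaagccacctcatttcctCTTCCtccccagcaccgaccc
ENG: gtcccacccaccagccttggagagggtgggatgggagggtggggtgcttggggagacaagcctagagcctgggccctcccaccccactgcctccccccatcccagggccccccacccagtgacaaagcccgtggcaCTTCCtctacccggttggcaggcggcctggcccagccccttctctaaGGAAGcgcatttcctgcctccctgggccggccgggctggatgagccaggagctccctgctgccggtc
ETV2: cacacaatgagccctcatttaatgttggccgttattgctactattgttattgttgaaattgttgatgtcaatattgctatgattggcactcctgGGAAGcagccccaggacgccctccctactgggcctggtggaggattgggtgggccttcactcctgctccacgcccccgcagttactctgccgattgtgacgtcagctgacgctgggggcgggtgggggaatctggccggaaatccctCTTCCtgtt
FLT1: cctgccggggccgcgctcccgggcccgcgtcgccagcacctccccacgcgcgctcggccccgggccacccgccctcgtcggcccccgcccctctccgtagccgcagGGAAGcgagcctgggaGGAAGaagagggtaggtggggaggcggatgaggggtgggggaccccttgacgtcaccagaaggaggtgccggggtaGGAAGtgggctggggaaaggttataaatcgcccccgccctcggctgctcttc
Searched on both strands, GGAAG occurred 2 times each in the windows of TIE1, ENG and ETV2 and 3 times in that of FLT1, and 65.1% of all 35116 windows of this length held it. The longer CAGGAAG occurred 1 time in ETV2 and in none of the other 3, against 10.5% of all windows. CCGGAAG (8.52% of all windows) and the GATA-type AGATAA (9.17%) occurred in none of the 4. Each longer ETS motif contains GGAAG.

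Across comparisons, the calls among the 10 genes were read against the share of all genes called. From day 0 to day 4, 9 of the 10 passed the filter on low counts, CDH5 being the exception, and edgeR called none, against 0% of all genes higher and 0% lower. At an unadjusted p under 0.05, 1 of the 9 was past, TEK, at -0.89 (SE 0.26, edgeR adjusted p = 0.885). Over all genes, 741 of 20964 were past it. DESeq2 and limma called none. From day 4 to day 9 all 10 were tested, and 4 were higher (PECAM1, CDH5, VWF and ETV2), against 24.3% of all genes, and 2 were lower (TIE1 and FLT1), against 24.7%. From day 4 to day 11, 5 were higher (PECAM1, CDH5, TEK, ERG and ETV2), against 23.1% of all genes, and 1 was lower (FLT1), against 23.8%. The median log2 fold change of the 10 was -0.17 for day 9 against day 4 and 1.31 for day 11 against day 4.

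Between neighbouring later days edgeR called none of the 10. For day 11 against day 9 the shares of all genes called were 1.39% higher and 1% lower. At an unadjusted p under 0.05, 4 of the 10 were past (CDH5, TEK, ERG and ETV2), against 3517 of 20679 over all genes. DESeq2 called 2 (TEK and ERG), limma on log2(TPM + 1) called 1 (TEK), and limma on log2(TPM + 0.1) called none. The median log2 fold change of the 10 was 2.16, with 8 positive, and 0.29 without day 11 plate 5, with 6 positive. For day 20 against day 11 the shares of all genes called were 1.12% higher and 0.435% lower. At an unadjusted p under 0.05, 1 of the 10 was past (ENG), against 3564 of 21398 over all genes. DESeq2 gave an adjusted p for 8 of the 10, not for PECAM1 or TEK, and neither it nor limma called any. The median was -0.84, with 9 of the 10 negative, and 0.16 without day 11 plate 5, with 5 negative. These comparisons share libraries: day 4 and day 11 each stand in 3 of the 5, and day 9 in 2.

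**Figure D2:**
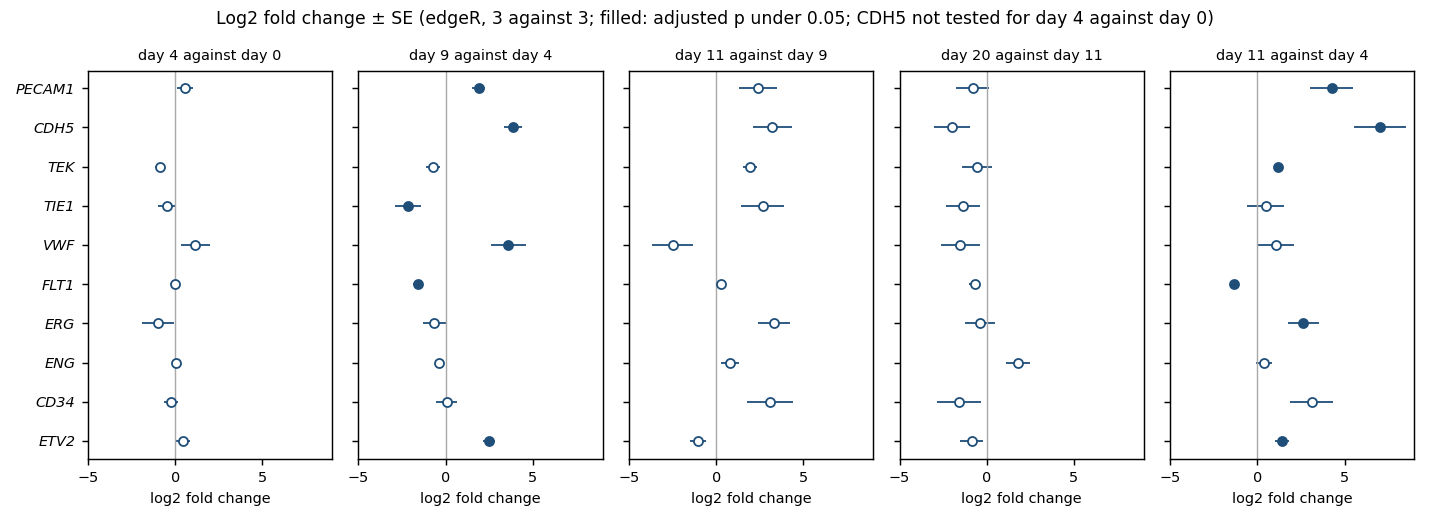
Log2 fold changes of the 10 genes (x axis, with SE bars) in 5 comparisons of 3 libraries against 3, from edgeR; filled points passed an adjusted p under 0.05. Filled points appear for 6 genes in day 9 against day 4 and for 6 in day 11 against day 4, and for none in the other 3 panels.

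The 3 day 11 libraries differed by over 10 times for 6 of the 10 genes. The highest library held 69.3 times the CPM of the lowest for CD34, 34.2 times for CDH5, 26.7 times for TIE1, 19.9 times for VWF, 19.3 times for PECAM1 and 10.6 times for ERG. For FLT1 the ratio was 1.60 and for TEK it was 1.10. Plate 5 was highest for 9 of the 10 genes, TEK being the exception, and plate 6 was lowest for 9 of the 10, ENG being the exception. Over 17094 genes, plate 5 was highest in 35.4% and plate 6 lowest in 32.5%. The median log2 range of the 10 genes was 3.81, against 0.56 over all genes, and 7 of the 10 exceeded the 90th percentile of all genes (1.53). Without plate 5 the median range was 1.54, and without plate 6 it was 1.77. On the other days the median range of the 10 was 1.31, 0.75, 1.45 and 2.22 on days 0, 4, 9 and 20, against 0.51, 0.33, 0.39 and 1.20 over all genes. Those above the 90th percentile of their day numbered 6, 4, 8 and 1. A similar pattern held on day 9. There the library with no plate number was highest for 8 of the 10 and plate 6 lowest for 9, against 35.3% and 34.3% of all genes. These are descriptions, with no test, since the libraries are single samples.

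Some of the other gene lists differed in plate 5 and some did not. As the median of log2 CPM in plate 5 minus the mean of the other 2 libraries, the 10 genes stood at 2.64 and all genes at -0.06. Of 20 other endothelial surface and junction genes with a mean of at least 1 CPM over the 3 libraries, 19 were highest in plate 5 (median 2.20). Of 15 other endothelial transcription factors, 11 were (median 0.93). That filter includes plate 5, so some genes entered only through it, such as CLEC14A, at 0.522, 2.93 and 0.172 CPM in plates 2, 5 and 6. The count of 19 is therefore a description and no independent support. The 8 cardiomyocyte markers were all highest there (median 1.67), with summed CPM of 7532, 25489 and 5344 in plates 2, 5 and 6. Of 8 fibroblast and mesenchyme markers, 7 were lowest in plate 5 (median -2.98), with summed CPM of 7157, 3346 and 14314, and of 7 yolk sac and liver markers, 6 were lowest (median -2.65). By contrast, 4 of 8 VEGF ligands and other receptors were highest in plate 5 (median -0.06), as were 2 of 7 partners of ENG (median -0.09) and 3 of 6 epithelial markers (median 0.01). KDR, which stands on both the VEGF and the surface list, was highest in plate 6, at 399, 529 and 897 CPM in plates 2, 5 and 6. Of 3 angiopoietin and TIE phosphatase genes past the same filter, 2 were highest in plate 5 and 1 was lowest (median 1.58). ANGPT1 was at 80.5, 164 and 37.1 CPM and PTPRB at 1.87, 9.12 and 0.387 CPM, while ANGPT2 was at 19.7, 4.10 and 35.4 CPM. The summed CPM of 12 blood cell markers was 21.8, 21.6 and 11.4, and PTPRC, the pan-leukocyte gene, had 0 reads in all 3. The RNA integrity numbers of the 3 libraries were 9.9, 9.7 and 9.6, and each came from its own sequencing lane. The part of these other lists, or of the lane, in the endothelial values was not tested.

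**Figure D3:**
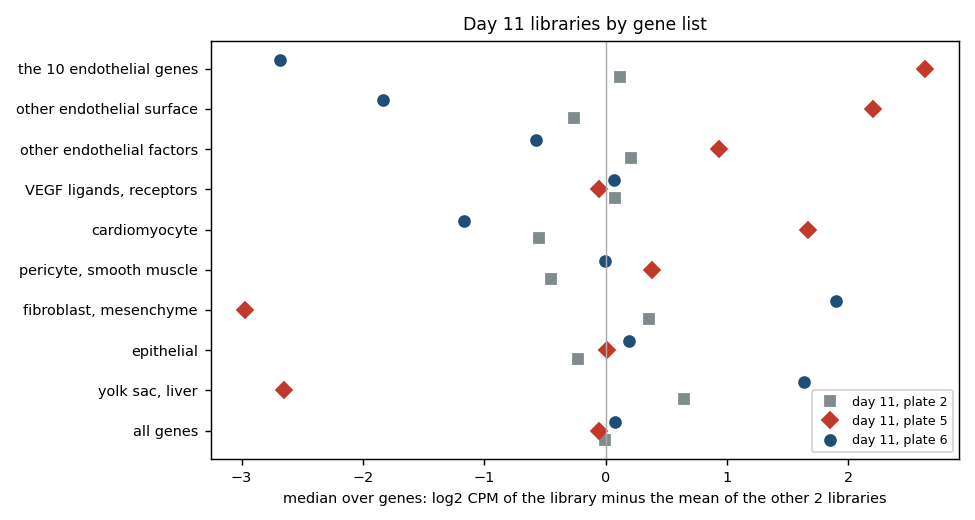
For each gene list (y axis), points give the median over its genes of log2 CPM in 1 day 11 library minus the mean of the other 2 (x axis). Plate 5 lies at 2.64 for the 10 endothelial genes and at -2.98 for the fibroblast markers, and all genes lie near 0.

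Partners of the 10 genes were followed through 4 lists. Their counts stand beside the shares of all genes called, which were 24.3% higher and 24.7% lower for day 9 against day 4, and 23.1% and 23.8% for day 11 against day 4. Among VEGF ligands and other VEGF receptors, 5 of 8 tested rose and 1 fell from day 4 to day 9: PGF, a ligand of FLT1, went from a mean of 6.08 to 58.2 CPM (log2 fold change 3.32, SE 0.32, edgeR adjusted p = 0.000140), and the lymphatic receptor FLT4 fell by 2.47 on the log2 scale (SE 0.23, edgeR adjusted p = 7.79e-05). KDR, the main VEGF receptor of endothelium, went from 373 to 770 CPM (1.10, SE 0.39, edgeR adjusted p = 0.0503). Among angiopoietins and the TIE phosphatase PTPRB, ANGPT2 rose from day 4 to day 9, from 0.719 to 13.9 CPM (4.32, SE 0.20, edgeR adjusted p = 2.56e-06). ANGPT1, the activating ligand of TEK, rose from day 9 to day 11, from 1.65 to 93.8 CPM (5.82, SE 0.83, edgeR adjusted p = 0.0227). Of 7 tested partners of ENG, 4 rose from day 4 to day 9 and none fell, and for day 11 against day 4 it was 6 and none. TGFBR3 went from 19.9 to 244 CPM by day 11 (3.64, SE 0.72, edgeR adjusted p = 0.00582).

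Most of the other endothelial transcription factors tested rose after day 4. From day 4 to day 9, 13 of 15 tested rose and none fell (24.3% and 24.7% of all genes), with a median log2 fold change of 2.66. From day 4 to day 11, 13 of 14 rose (23.1% of all genes), with a median of 3.78. GATA2 went from 1.53 to 42.2 CPM by day 9 (4.83, SE 0.61, edgeR adjusted p = 0.000511) and fell by 2.08 on the log2 scale from day 11 to day 20 (SE 0.35, edgeR adjusted p = 0.0352). SOX17 stood at a mean of 0.0305 CPM on day 4, 31.1 CPM on day 9 and 4.52 CPM on day 11, and fell by 2.80 on the log2 scale over the last interval (SE 0.42, edgeR adjusted p = 0.0240). Several of these factors also act in other mesoderm and endoderm, SOX17 and HHEX among them. Among other endothelial surface and junction genes, 6 of 16 tested rose and 4 fell from day 4 to day 9, where 24.3% of all genes rose and 24.7% fell, so the share that fell was near that of all genes. From day 4 to day 11, 8 of 18 rose and 1 fell, against 23.1% and 23.8% of all genes. The sphingosine receptor S1PR1 rose again from day 9 to day 11 (30.8 to 81.0 CPM, 1.38, SE 0.14, edgeR adjusted p = 0.0132), and the apelin receptor APLNR fell by 4.66 from day 11 to day 20 on the log2 scale (SE 0.38, edgeR adjusted p = 0.0124).

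On day 20 the library labelled plate 2 (2_3) was highest of the 3 for PECAM1, TIE1, VWF, ERG, CD34 and ETV2. Of 252 autosomal coding genes, each 2 kb or longer and with no more than 2 reads in all over days 0 to 11, it had reads on 251, at a median of 7.19 reads per kb, against 42 genes in plate 2 and 169 in plate 6. At that rate, 43.9% of its PECAM1 reads, 40.7% of its ERG reads and 37.0% of its CD34 reads would be matched by a silent gene of the same length. For TEK, ENG and FLT1 the shares were 10.9%, 8.06% and 5.67%. Without this library the median log2 fold change of the 10 for day 20 against day 11 was -1.32, with 9 of the 10 negative. The part of these reads in the day 20 values was not tested.

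**Figure D4:**
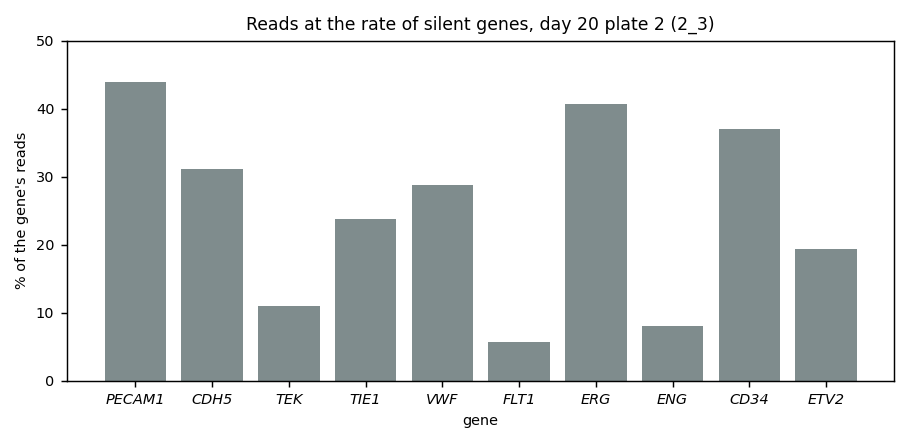
Bars give, for each gene (x axis), the reads that the median rate of silent genes would yield over its exons, as a percentage of its reads in the day 20 library labelled plate 2 (2_3) (y axis, from 0). PECAM1, ERG and CD34 have the largest shares, and FLT1 the smallest.

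CDH5 served as the reference for likeness over the 15 libraries. The Pearson correlation of log2 CPM with CDH5 was 0.92 for PECAM1, 0.64 for ERG, 0.51 for CD34, 0.50 for ETV2, 0.43 for ENG and 0.30 for VWF. It was -0.02 for TEK, -0.06 for TIE1 and -0.70 for FLT1. Among 15679 protein-coding genes, the 5 nearest to CDH5 outside the 10 were TIMP3 (0.96), CNN1 (0.95), NAPB (0.95), TLR4 (0.95) and NOG (0.95), of which CNN1 is on the pericyte and smooth muscle list. These values describe 15 libraries that share their day and their scaling, and no test was made of them.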

How the data were processed

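Reads of stranded, ribosome-depleted total RNA were aligned by the authors to GRCh38 (Ensembl release 79) with STAR 2.5.2b and counted with featureCounts 1.5.1. The deposited counts are not normalized and leave out rRNA and mitochondrial genes. TPM values were made by the authors from these counts, with gene lengths not given in the sources used here. The deposited sample table gives RNA integrity as a score, the fraction of uniquely mapped reads, and the sequencing lane. The methods list day 7 where the labels, followed here, give day 9.

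Identifiers were matched to GENCODE v44. Each comparison was one edgeR fit (version 4.0.16, R 4.3.3) of its 6 libraries with no covariate: genes were kept by filterByExpr (minimum count 10, minimum total 15), scaled by TMM and compared with the two-sided quasi-likelihood test. Benjamini-Hochberg adjustment covered every gene tested, and calls were made under 0.05. SE is the log2 fold change divided by the square root of the F statistic. With 3 libraries a day, p-values measure only the spread between these libraries, and exact Poisson intervals (scipy 1.17.1) cover counting error only. Alternatives were DESeq2 1.42.0, limma 3.58.1 on log2 TPM plus 1 or 0.1, other scalings and filters, all 15 libraries in one fit, the lane as a covariate, the plate number as a block, and each library left out. Methods were tested on simulated day 9 and day 11 counts that gave every gene the same spread between replicates. That setting does not cover genes that vary between replicates as these did on day 11.

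All 10 genes are named. Genes of the pathway lists are named where past the threshold with no overlap between days, at most 5 per list by size, and not all of these are printed. KDR was named after its values were seen, and PTPRB, CLEC14A and PTPRC were named for their day 11 values, outside that rule. The genes and lists were chosen with earlier results of these data known.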

Additional observations from a re-analysis of the deposited data

How the results depend on the processing

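The counts of the 10 genes past the threshold moved by over 1.5 times in the following cases. For day 4 against day 0, no filter on low counts gave 1 in place of 0. For day 11 against day 9, edgeR gave 0, DESeq2 2, limma on log2(TPM + 1) 1, the lane as a covariate 2 and the plate number as a replicate block 4. Leaving out 1 library gave 0 to 1, where the 1 was TEK without day 9 plate 6 and ERG without day 11 plate 6. For day 20 against day 11, all 15 libraries in one fit gave 1 in place of 0, and leaving out 1 library 0 to 1 (TEK without plate 6). For day 11 against day 4, no filter gave 3 in place of 6, and leaving out 1 library 3 to 7. For day 9 against day 4 leaving out 1 library gave 4 to 7 in place of 6, which stayed within 1.5 times. Over all genes, calls for day 11 against day 9 went from 495 to 1674 with DESeq2, and for day 20 against day 11 from 332 to 1871 with DESeq2. The median log2 range on day 11 was 1.54 to 3.81 when 1 library was left out.

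Log2 fold changes that turned sign were all of genes not called. For day 4 against day 0, FLT1 (-0.03) became 0.0036 and 0.0034 with limma after adding 1 and 0.1. Leaving out 1 library gave -0.21 to 0.14 for FLT1, -1.57 to 0.94 for ERG, -0.036 to 0.22 for ENG and -0.56 to 0.021 for CD34. For day 9 against day 4, CD34 (0.05) became -0.018 with all 15 libraries, -0.048 and -0.27 with limma after adding 1 and 0.1, -0.15 with the lane, and -0.56 to 0.55 leaving out 1 library. For day 11 against day 9, leaving out 1 library gave -0.015 to 2.91 for PECAM1 and -0.058 to 1.07 for ENG. For day 20 against day 11, PECAM1 (-0.82) became 0.13 and 0.43 with limma and 0.49 with the lane. Leaving out 1 library gave -1.36 to 1.54 for PECAM1, -1.92 to 0.69 for TIE1, -1.28 to 0.43 for ERG and -2.74 to 0.47 for CD34. For day 11 against day 4, TIE1 (0.47) became -0.23 and -0.45 with limma and -0.29 with the lane. Leaving out 1 library gave -1.63 to 1.00 for TIE1, -0.31 to 2.12 for VWF and -0.45 to 0.67 for ENG. The cause was not tested.

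Plate numbers recur between days, but libraries of the same number did not deviate together throughout: correlations across genes of deviations from the day means were 0.147 and 0.368 for days 9 and 11, and -0.186, 0.0253 and 0.378 for days 11 and 20. For days 9 and 11, plates 2 and 6 each correlated best with their own number (0.147 and 0.368). For days 11 and 20, plate 6 did so (0.378), while day 11 plate 2 correlated best with day 20 plate 6 (0.192). For days 4 and 11 the correlations within a number were -0.0689 for plate 2 and 0.0796 for plate 5. With the plate number as a replicate block, a library whose number no other library in the fit shares does not inform the difference between days. For days 9 and 11 these were day 11 plate 5 and the day 9 library with no plate number. For days 11 and 20 it was day 11 plate 5, and for days 4 and 11 day 4 plate 1 and day 11 plate 6. Under this block, 4 of the 10 genes passed for day 11 against day 9 (TIE1, VWF, ERG and ETV2), with ENG at -0.10. The share of all genes called under the block is not given here. For day 20 against day 11 the replicate block called none, and PECAM1 became 1.55, CDH5 0.083, TIE1 0.76, ERG 0.59 and CD34 0.83. For day 11 against day 4 it called 6, as without it, but lost PECAM1 (4.04, edgeR adjusted p = 0.0711) and gained CD34 (3.08, adjusted p = 0.0421).

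Over the single genes and counts, 730 of the 834 values under an alternative kept their direction and side of the threshold, or stayed within 1.5 times for a count. Of the rest, 36 turned sign, 35 lost and 19 gained a call, and 14 were counts or ranges that moved. Genes with under 20 reads in a library, such as PECAM1 and CDH5 on days 0 and 4, are limited by depth.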
